A study of Mus musculus with 6 samples.

Results

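Of 30 genes that run or control cholesterol synthesis, uptake and efflux, none differed past the test between aortic roots labelled Sost-/- and Sost+/+. Of all genes 2.55% did, so a count of 0 in a list this short is near the background. For 28 of the 30, the 95% interval of the difference in bulk level lay within 2-fold in either direction. Abca1 came closest (adjusted p = 0.0555 in edgeR), and DESeq2 and edgeR with upper-quartile factors called it. The set was chosen by name: enzymes of the sterol pathway, the sterol sensing system, a sterol transfer protein, the liver X receptors (LXRs), the pumps they control and a ligase for lipoprotein receptors. All 30 symbols were found among the 23420 of the deposited count table, and all 30 passed the filter on low counts that left 15096 genes for testing. The members were measured in 6 libraries, 1 for each aortic root, the base of the aorta with the valve and adjoining heart muscle. Each group had 3 roots of C57Bl6/J mice aged 12 months, and the groups are called WT (labelled Sost+/+) and KO (labelled Sost-/-) here. Both groups shared the regimen, chow up to 4 months of age and, for the next 8 months, TestDiet 5TJT, which is high in cholesterol, so there was no chow group and nothing here measures the effect of the diet. A p-value here sets the difference between the groups against the spread between these roots, part of which may be technical. Nothing in the labels says whether the roots of a group came from separate litters, so how far that spread covers litters is not known.

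Cells make cholesterol from acetyl-CoA in a long chain of steps that runs through mevalonate and squalene. The membrane-bound factors SREBP1 and SREBP2 switch on the genes of this chain and of fatty acid synthesis when the sterol content of the endoplasmic reticulum is low, and the INSIG proteins hold them back, together with their escort SCAP, when it is high. The LXRs act in the other direction: oxidised sterols activate them, and they raise the pumps ABCA1 and ABCG1, which hand cholesterol to lipoproteins, and the ligase MYLIP, which sends lipoprotein receptors to degradation. In the artery wall these pathways are best known from macrophages and smooth muscle cells that take up lipoprotein cholesterol.

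Sequences around the start sites of 3 members are shown here because they carry the elements through which the 2 arms of this system are known to read sterols. Promoter windows (250 bases before to 50 bases after a RefSeq start site, build GRCm38.p6) were found for 25 of the 30 members, in 34 windows. The LXR repeat searched for was GGTTANNNNNGGTCA, on both strands, and it was chosen with the known elements of Abca1 and Srebf1 in view. It was held by the windows of 2 members, Abca1 and Srebf1, and by 0.0487% of all 32851 windows. The SREBP element searched for was TCACNCCAC, on both strands, held by 1 member, Hmgcs1, and by 1.24% of all windows. The letters CCAAT, bound by NF-Y, a common partner of SREBPs, were found on either strand in 21 of the members' 34 windows and in 37.4% of all windows, or for 20 of the 25 members and 41.1% of all genes. No match of 1 of these motifs overlapped a match of another in the members' windows. A match is a description of the letters, not of binding. In the lines that follow the match is in capitals and each window reads 5′ to 3′ on the gene's strand, Abca1 from chr4:53159846-53160145 (minus strand), Srebf1 from chr11:60210422-60210721 (minus strand) and Hmgcs1 from chr13:119690101-119690400 (plus strand).
Abca1: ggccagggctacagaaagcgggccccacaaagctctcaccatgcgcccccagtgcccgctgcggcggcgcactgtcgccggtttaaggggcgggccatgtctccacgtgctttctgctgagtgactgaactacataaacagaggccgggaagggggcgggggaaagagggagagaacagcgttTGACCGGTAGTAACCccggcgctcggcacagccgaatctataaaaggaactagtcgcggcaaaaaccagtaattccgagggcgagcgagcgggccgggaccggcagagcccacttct
Srebf1: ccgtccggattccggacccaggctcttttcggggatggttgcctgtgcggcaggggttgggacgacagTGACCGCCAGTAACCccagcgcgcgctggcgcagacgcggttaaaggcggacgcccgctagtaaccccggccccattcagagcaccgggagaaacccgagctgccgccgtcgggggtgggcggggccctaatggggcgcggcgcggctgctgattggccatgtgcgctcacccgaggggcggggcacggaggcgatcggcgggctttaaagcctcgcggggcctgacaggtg
Hmgcs1: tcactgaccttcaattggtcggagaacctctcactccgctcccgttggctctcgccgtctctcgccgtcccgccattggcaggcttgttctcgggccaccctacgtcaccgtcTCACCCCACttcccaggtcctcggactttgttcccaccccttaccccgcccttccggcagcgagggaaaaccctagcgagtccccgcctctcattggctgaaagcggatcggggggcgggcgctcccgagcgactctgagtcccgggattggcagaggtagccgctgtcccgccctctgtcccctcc
Of 3 Srebf1 windows, only the one shown holds the repeat. It belongs to the start site furthest downstream, inside the gene, which gives the SREBP-1c transcript. Counts per gene do not separate it from the other starts.

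Total counts ran from 37023586 to 48172863 per library, and single members had between 54 and 3958 counts in a library. Sost itself, which encodes the Wnt antagonist sclerostin, was counted 354, 621 and 274 times in WT 1 to 3 and 2284, 1063 and 513 times in KO 1 to 3. It was therefore not lower in the libraries labelled Sost-/-, which does not match what the labels name. The labels do not say which part of the gene is deleted and counts per gene do not show where in it the reads lie, so whether the allele leaves a transcript was not tested. Each direction given here is between libraries by label. Markers of other cells also differed between these libraries. In edgeR, 9 of 12 smooth muscle markers rose in KO (2.55% of all genes passed in either direction). Their summed level ran from 1583 to 3044 CPM (counts scaled to library size, TMM-adjusted) in WT and from 4524 to 6579 CPM in KO. Of 12 cardiomyocyte markers 1 fell, and 9 were lower at an unadjusted p under 0.05 (8.62% of all genes were). Their sums were 82382 to 90828 CPM in WT and 55753 to 69246 CPM in KO. None of 12 adipocyte markers passed, but 8 were higher at an unadjusted p under 0.05 (11.6% of all genes were). The sum of the 12 was 478 to 656 CPM in WT and 643, 1330 and 983 CPM in KO 1 to 3. None of 12 macrophage and none of 10 endothelial markers passed. At an unadjusted p under 0.05, 3 macrophage markers were higher (against 11.6% of all genes) and 2 endothelial markers lower (against 8.62%). In a bulk sample fewer cells of a type and less RNA per cell cannot be told apart, and the part of these cells in the values of the members was not tested.

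In edgeR's quasi-likelihood test with Benjamini-Hochberg adjustment over the 15096 genes, 0 of the 30 members passed at 0.05, where 2.55% of all genes did. The plot of CPM by gene shows every member in every library. At an unadjusted p under 0.05, 6 members were higher in KO (against 11.6% of all genes) and 0 were lower (against 8.62%). Groups did not overlap for 4 members that were higher in every KO library (13.3%, against 14.3% of all genes), Abca1, Srebf1, Mvk and Tm7sf2, and for 2 that were lower, Fdps and Insig2 (6.67%, against 11.1%). Positive log2 fold changes were found for 21 of the 30 (70.0%, against 51.3%), and the median was 0.10, with a range from -0.21 to 0.62, beside a median of 0.0066 over all genes tested. DESeq2 called 1 member, Abca1, among 5.11% of all genes it called higher, and limma-voom called 0.

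**Figure D1:**
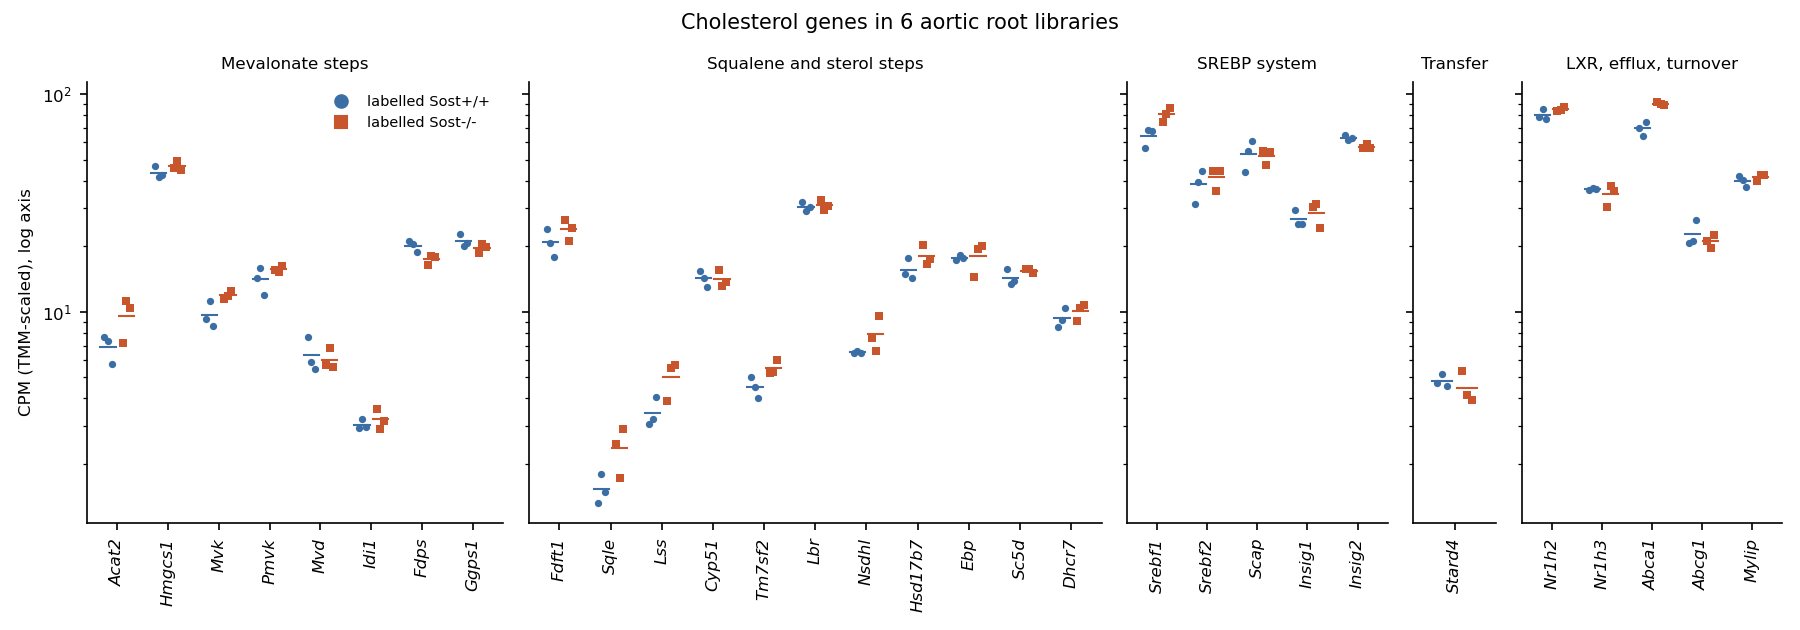
Level of each of the 30 genes in CPM (log axis) by role, with 1 point for each library and a bar at the group mean (circles, labelled Sost+/+; squares, labelled Sost-/-). The groups overlap for 24 genes, and Abca1 and Srebf1 show the KO points above the WT points.

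The precision of these values sets what could have been missed. The standard error (SE) of a member's log2 fold change ran from 0.08 (Insig2) to 0.26 (Sqle), with a median of 0.12. For 28 of the 30 members the 95% interval of the fold change lay wholly within 2-fold in either direction (93.3%, against 82.7% of all genes), and the exceptions were Sqle and Lss. For 24 it lay within 1.5-fold (80.0%, against 62.0%). These intervals are for 1 gene at a time and are not adjusted for the number of genes.

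**Figure D2:**
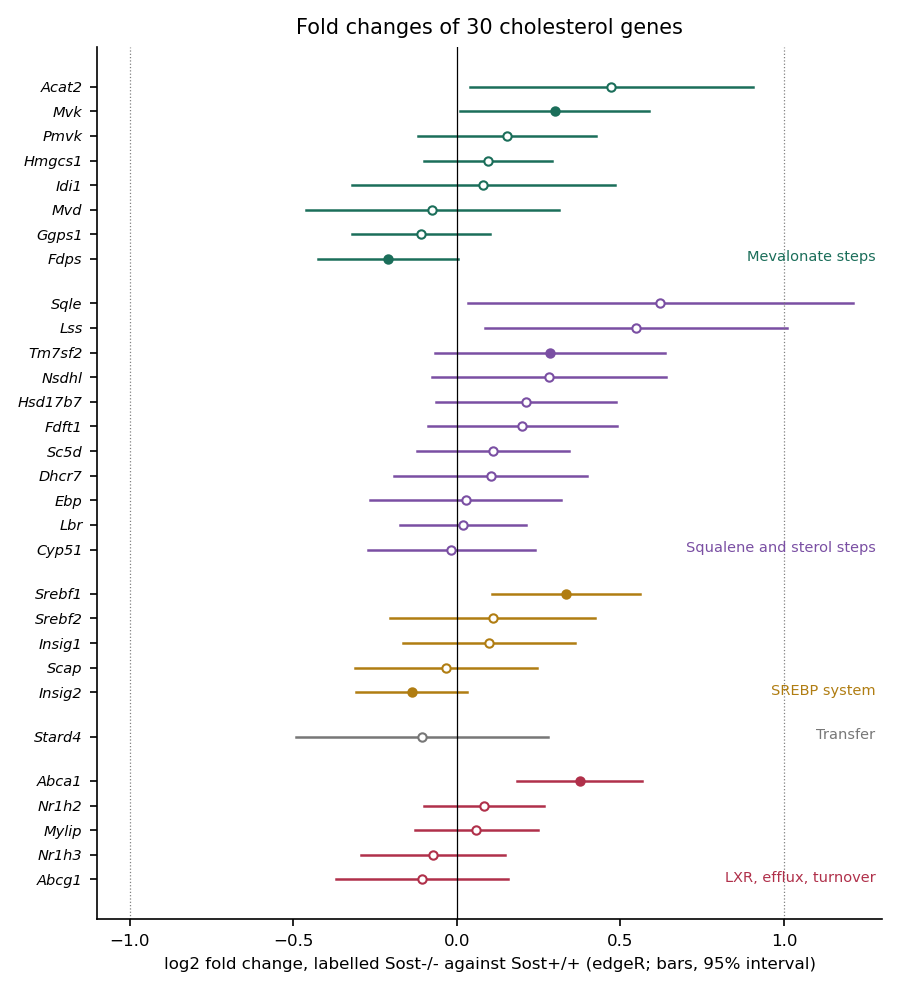
Log2 fold change of each member, KO against WT, with its 95% interval from edgeR, by role (filled points, groups that do not overlap; dotted lines, 2-fold). The bars of Sqle and Lss cross the 2-fold line, and those of the other 28 do not.

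None of the 8 genes of the mevalonate steps passed, and their median log2 fold change was 0.09. Hmgcs1, the cytosolic HMG-CoA synthase whose promoter window holds the SREBP element, stood at 46.8, 41.6 and 42.4 CPM in WT 1 to 3 and at 45.7, 49.3 and 44.8 CPM in KO 1 to 3. The groups overlapped, and the log2 fold change was 0.10 (95% interval -0.10 to 0.29, adjusted p = 0.570). Acat2, the cytosolic acetoacetyl-CoA thiolase that makes the substrate of that enzyme, had 7.69, 7.32 and 5.74 CPM in WT and 7.17, 11.3 and 10.4 CPM in KO (log2 fold change 0.47, SE 0.19, adjusted p = 0.212). KO 2 and KO 3 were high and KO 1 lay among the WT libraries. With the adipocyte score as a covariate the log2 fold change was 0.02, with the cardiomyocyte score 0.08 and with the smooth muscle score 0.29. Cardiomyocyte and smooth muscle scores did not overlap between the groups, so both of those fits extrapolate. Mvk, mevalonate kinase, had 9.26, 11.2 and 8.62 CPM in WT and 11.4, 11.8 and 12.5 CPM in KO (0.30, SE 0.13, adjusted p = 0.233). Its groups were separated by a narrow gap between WT 2 and KO 1. Pmvk and Mvd, the kinase and the decarboxylase that follow, were at 0.15 (SE 0.12) and -0.07 (SE 0.17) on the log2 scale, and Idi1, which isomerises isopentenyl diphosphate, at 0.08 (SE 0.18).

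At the branch where farnesyl diphosphate is made and used, the estimates pointed in different directions, and none passed. Fdps, the synthase, had 21.2, 20.4 and 18.9 CPM in WT and 16.3, 18.1 and 17.8 CPM in KO. Every KO library was below every WT library, by a log2 fold change of -0.21 (SE 0.09, 95% interval -0.42 to 0.0021, adjusted p = 0.251). Fdft1, squalene synthase, which commits the product to sterols, had 24.0, 20.6 and 17.9 CPM in WT and 26.4, 21.3 and 24.3 CPM in KO (0.20, SE 0.13, adjusted p = 0.416), with overlap. Ggps1, which diverts it to the geranylgeranyl lipids that anchor small GTPases, was at -0.11 (SE 0.09). Ratios of 4 pairs of members, chosen after the values were seen, do not depend on scaling. The ratio of Fdft1 to Fdps counts within a library was 1.13, 1.01 and 0.948 in WT and 1.61, 1.17 and 1.36 in KO. The KO ratios were all higher, by 0.42 on the log2 scale (p = 0.1 in an exact two-sided permutation test, which cannot go lower with 3 libraries a group, and 0.2 adjusted over the 4 ratios computed). Neither p allows for the choice of the pairs, so they do not test the difference. Exons of Fdft1 share 774 bases with Ctsb on the opposite strand, and Fdps shares 1124 with Gm43738, not a row of the count table, on its own strand, so the values depend on how reads in these stretches were counted.

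The largest positive differences among the members were in the 2 of lowest level per kilobase of exon, both of squalene handling. Sqle, squalene epoxidase, a rate-limiting enzyme of the sterol branch, had 1.32, 1.81 and 1.48 CPM in WT and 2.48, 1.73 and 2.89 CPM in KO. KO 2 lay within the WT range and the other two KO libraries above it (log2 fold change 0.62, SE 0.26, 95% interval 0.03 to 1.21, adjusted p = 0.224). These levels rest on 54 to 121 counts in a library. Lss, lanosterol synthase, the next enzyme, had 3.05, 3.23 and 4.06 CPM in WT and 3.90, 5.50 and 5.70 CPM in KO (0.55, SE 0.20, 95% interval 0.09 to 1.01, adjusted p = 0.182). Here KO 1 lay below WT 3, and KO 2 and KO 3 were above all WT libraries. With the adipocyte, cardiomyocyte and smooth muscle scores as covariates the log2 fold changes were 0.49, 0.03 and 0.78 for Lss and 0.75, 1.71 and -0.25 for Sqle. The cardiomyocyte and smooth muscle fits extrapolate, since neither score overlapped between the groups.

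After lanosterol the remaining enzymes showed small differences. Tm7sf2, a sterol C14 reductase, had 5.05, 4.50 and 4.04 CPM in WT and 5.26, 5.28 and 6.01 CPM in KO (0.28, SE 0.16, adjusted p = 0.342). The groups did not overlap, with WT 1 and KO 1 close together, and 532 exonic bases are shared with Vps51. Lbr, the lamin B receptor, which carries the same reductase activity in the nuclear envelope, was level at 30.5 ± 1.37 and 30.9 ± 1.73 CPM (SD, n = 3; 0.02, SE 0.09). Nsdhl and Hsd17b7, which remove the C4 methyl groups, were at 0.28 (SE 0.16) and 0.21 (SE 0.12). Nsdhl was tightly grouped in WT, from 6.48 to 6.64 CPM, and ran from 6.61 to 9.62 CPM in KO. There KO 2 lay within the WT range, KO 1 above it at 7.62 CPM and KO 3 furthest from it. Cyp51, the lanosterol demethylase, Ebp, a sterol isomerase, Sc5d, a desaturase, and Dhcr7, which makes cholesterol in the last step of one route, were at -0.02, 0.03, 0.11 and 0.10, with SE from 0.10 to 0.13. Of these 11 genes of the sterol branch, 10 had positive values (against 51.3% of all genes) and 0 passed (against 2.55%).

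Libraries differed in where they placed these genes as a group. For each gene the log2 CPM in a library was set against the gene's mean over the 6 libraries, and averaged over the 11 genes of the sterol branch this deviation came to -0.10, -0.09 and -0.13 for WT replicates 1 to 3 and to 0.08, 0.03 and 0.21 for the KO replicates. KO 3 was the highest library for 6 of the 11 genes, KO 1 for 4 and KO 2 for 1, and no WT library was the highest for any. For the 8 mevalonate genes the same averages were 0.04, 0.00151 and -0.17 in WT and -0.03, 0.10 and 0.06 in KO, so that WT 3 alone was low and KO 1 lay below WT 1 and WT 2. Across all 30 members KO 3 was the highest library for 11 and WT 3 the lowest for 10. These averages describe the libraries and carry no test, since genes of a library share its RNA.

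None of the 5 genes of the sterol sensor passed, and Srebf1 had the largest estimate among them. Srebf1 (ENSMUSG00000020538.15), which encodes the SREBP1 proteins that drive mostly fatty acid synthesis, had 56.8, 68.3 and 67.5 CPM in WT and 74.8, 81.2 and 86.5 CPM in KO. All 3 KO libraries were above all 3 WT libraries (64.2 ± 6.39 against 80.8 ± 5.83 CPM, SD, n = 3), with a log2 fold change of 0.33 (SE 0.10, 95% interval 0.11 to 0.56) that did not pass in edgeR (adjusted p = 0.120). Srebf2, whose product drives the cholesterol genes, had 31.4, 39.7 and 44.4 CPM in WT and 44.5, 35.7 and 44.3 CPM in KO, an overlap, with a log2 fold change of 0.11 (SE 0.14). The ratio of Srebf1 to Srebf2 counts was 1.81, 1.72 and 1.52 in WT and 1.68, 2.27 and 1.95 in KO. These ratios overlapped (exact two-sided permutation p = 0.3), in a test that cannot go below 0.1. Scap, the escort, was at -0.03 (SE 0.12).

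The sensor's brakes differed little. Insig2, an anchor that does not depend on SREBP for its expression in many tissues, had 65.1, 61.3 and 63.2 CPM in WT and 56.8, 59.1 and 56.4 CPM in KO. Each KO library was below each WT library, but the difference was small, -0.14 on the log2 scale (SE 0.08, 95% interval -0.31 to 0.03, adjusted p = 0.340). Insig1, itself a classical SREBP target, had 29.3, 25.4 and 25.3 CPM in WT and 30.2, 31.2 and 24.2 CPM in KO (0.10, SE 0.12). The ratio of Insig1 to Insig2 counts was 0.450, 0.414 and 0.401 in WT and 0.533, 0.528 and 0.430 in KO, overlapping through KO 3 (exact two-sided permutation p = 0.2). Stard4, a sterol transfer protein gene that also responds to SREBP, was at -0.11 (SE 0.17), from 4.58 to 5.16 CPM in WT and from 3.94 to 5.33 CPM in KO.

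Abca1 was the member closest to the threshold. The gene (ENSMUSG00000015243.4, chromosome 4, 53030787 to 53159895, minus strand) encodes the pump that loads cholesterol and phospholipid onto apolipoprotein A-I. Its levels were 70.3, 64.5 and 74.7 CPM in WT and 92.5, 90.1 and 89.0 CPM in KO. The KO libraries lay close together and all above the WT libraries (69.8 ± 5.11 against 90.5 ± 1.77 CPM, SD, n = 3). The log2 fold change was 0.38 (SE 0.08, 95% interval 0.18 to 0.57), and edgeR's adjusted p was 0.0555, just short of a call. DESeq2 called it with a log2 fold change of 0.37 (adjusted p = 0.00501), as did edgeR with upper-quartile factors (adjusted p = 0.0452), while limma-voom did not (adjusted p = 0.0567). Leaving out 1 library kept the log2 fold change between 0.32 and 0.42, with adjusted p from 0.0672 to 0.207. With a covariate for smooth muscle, cardiomyocytes or adipocytes the values were 0.62, 0.19 and 0.46, and none passed. The smooth muscle and cardiomyocyte fits extrapolate here too.

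The estimates of Abcg1, Mylip and the 2 receptor genes lay between -0.11 and 0.08 on the log2 scale. Abcg1, the pump that hands cholesterol to mature high-density lipoprotein, had 20.7, 21.1 and 26.5 CPM in WT and 21.1, 19.7 and 22.5 CPM in KO (-0.11, SE 0.12, 95% interval -0.37 to 0.16, adjusted p = 0.643). The Abca1 to Abcg1 count ratio was 3.40, 3.06 and 2.82 in WT and 4.39, 4.57 and 3.95 in KO. It was higher in every KO library, by 0.48 on the log2 scale (exact two-sided permutation p = 0.1, the smallest possible, and 0.2 adjusted over the 4 ratios). The pair was chosen after the values were seen, and neither p allows for that choice, so they do not test the difference. Mylip was level, at 39.9 ± 2.29 and 41.6 ± 1.56 CPM (SD, n = 3; 0.06, SE 0.08). Of the receptors themselves, Nr1h2, the gene of LXR beta, had 78.2, 85.7 and 77.3 CPM in WT and 83.7, 84.2 and 87.5 CPM in KO (0.08, SE 0.08), and Nr1h3, the gene of LXR alpha, had 36.1, 37.2 and 36.6 CPM in WT and 30.5, 37.9 and 36.1 CPM in KO (-0.07, SE 0.10). For both receptors the groups overlapped, and KO 1 alone was low for Nr1h3.

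**Figure D3:**
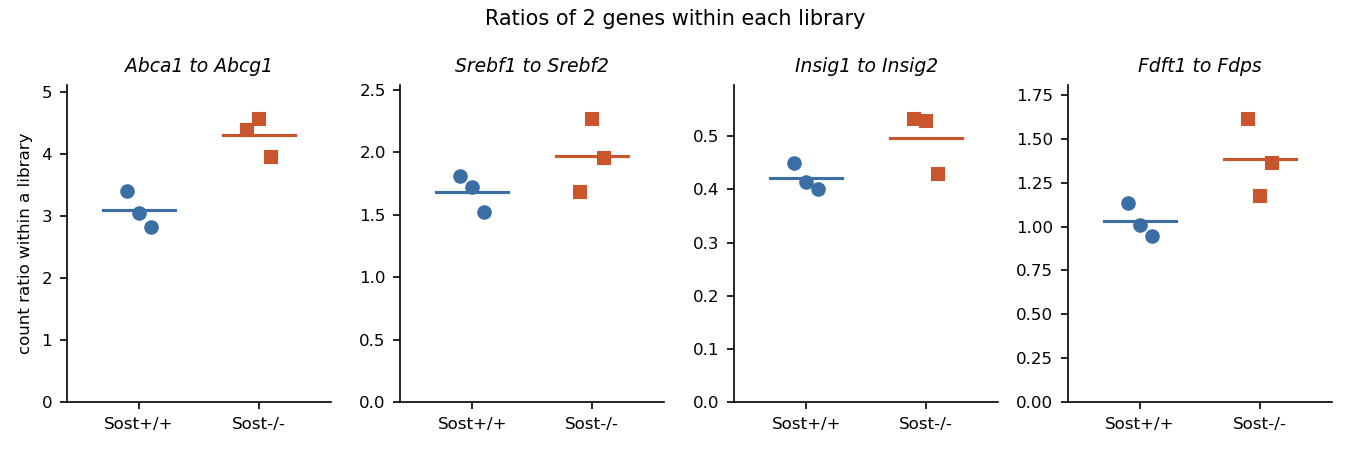
Ratio of the counts of 2 genes within each library, for 4 pairs of members (points, libraries; bars, group means; axes from 0). The ratios of Abca1 to Abcg1 and of Fdft1 to Fdps do not overlap between groups, and the other 2 do. The pairs were chosen after the values were seen.

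Levels were compared between genes as CPM per kilobase of annotated exon, a scale on which long or rarely used exons lower a gene. Nr1h2 was highest at 24.0 ± 1.37 in WT (SD, n = 3), then Insig2 at 18.2 ± 0.548, Nr1h3 at 14.6 ± 0.210, Mylip at 12.4 ± 0.710 and Srebf1 at 11.4 ± 1.13. The intervals of 1 SD of Mylip and Srebf1 overlapped, and those of the first 3 did not overlap with one another. Among the enzyme genes Hmgcs1 had the highest mean, 9.49 ± 0.607 per kilobase, which overlapped within 1 SD with that of Pmvk, 8.22 ± 1.15. The lowest levels per kilobase were those of Idi1 (0.866 ± 0.0483), Stard4 (0.863 ± 0.0545), Lss (0.320 ± 0.0501) and Sqle (0.277 ± 0.0444), and neither Idi1 and Stard4 nor Lss and Sqle could be ordered beyond their spread. In KO libraries Nr1h2 (25.4 ± 0.618) and Insig2 (16.5 ± 0.420) were again highest and Lss (0.467 ± 0.0915) and Sqle (0.426 ± 0.106) lowest.

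Other genes of the pathway were read from the same test, from lists drawn up with earlier results of these data known: 71 genes, of which 3 rose and 0 fell (2.55% of all genes passed). At an unadjusted p under 0.05, 13 were higher and 2 lower, against 11.6% and 8.62% of all genes, and the median log2 fold change was 0.09. DESeq2 also called the 3, and of the genes named in the following it called Gramd1c, Cyp27a1, Pltp, Fasn and Acaca higher and Gpihbp1 lower. Of 14 genes of sterol synthesis and its control, 0 passed, and the smallest p were those of Pgrmc1, a sterol and haem binding membrane protein gene (0.32, SE 0.10, adjusted p = 0.128), Rnf145 (0.26, SE 0.12), a ubiquitin ligase gene of sterol feedback, and Tmem97, the sigma-2 receptor gene (0.31, SE 0.14). Of 18 genes of sterol transport, esters and oxysterols, 0 passed, and Gramd1c, a gene of the sterol carriers between plasma membrane and endoplasmic reticulum, came closest (2.86 ± 0.461 CPM in WT and 5.29 ± 0.852 CPM in KO, SD, n = 3), at a log2 fold change of 0.88 (SE 0.20, adjusted p = 0.0538). Cyp27a1, which makes an LXR-activating oxysterol, was at 0.37 (SE 0.11, adjusted p = 0.104), and Cyp46a1, another sterol hydroxylase gene, at 0.61 (SE 0.28).

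Among 12 LXR partners and targets 1 rose, Abcg4, a close relative of Abcg1. It had 2.06, 2.42 and 2.17 CPM in WT and 3.48, 4.12 and 4.46 CPM in KO (log2 fold change 0.86, SE 0.19, adjusted p = 0.0487). The call ended with any 1 library left out (log2 fold changes 0.78 to 0.95, adjusted p from 0.0532 to 0.229) and with limma-voom and DESeq2 size factors in edgeR. Pltp, the phospholipid transfer protein gene, was at 0.44 (SE 0.13, adjusted p = 0.104), and Rxrb, a partner receptor of the LXRs, at -0.17 (SE 0.08). Other targets in the list, Smpdl3a, Lpcat3 and Arl4c, were at 0.09 (SE 0.08), -0.18 (SE 0.11) and -0.26 (SE 0.16). Of the 12 genes 6 were positive (51.3% of all genes were) and 6 negative, with a median log2 fold change of 0.0092. In the list of 12 genes of lipoprotein uptake 1 rose, Scarb2, and 0 fell, while 6 were positive (51.3% of all genes were) and 6 negative. Scarb2 is the gene of LIMP-2, which brings glucocerebrosidase to lysosomes, so the call is not one of a lipoprotein receptor. Scarb2 had 101, 108 and 109 CPM in WT and 152, 149 and 143 CPM in KO, tight groups far from overlap (0.48, SE 0.08, adjusted p = 0.0248). This call too ended with any 1 library left out, with adjusted p from 0.0501 to 0.118, while the log2 fold change stayed between 0.43 and 0.50. Gpihbp1, which holds lipoprotein lipase on capillary endothelium, was at -0.49 (SE 0.11, adjusted p = 0.0614), and the scavenger receptor gene Stab1 at 0.31 (SE 0.11).

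Fatty acid genes downstream of SREBP1 held the largest of the 3 calls. Of 15 such genes 1 rose and 0 fell (2.55% of all genes passed), and 13 were positive (against 51.3%), with a median log2 fold change of 0.24. Some positive values were near 0, Acly at 0.02, Elovl5 at 0.04 and Me1 at 0.0011, and Acacb and Acss2 were at -0.08 and -0.19. Scd1, a desaturase gene that both SREBP1 and LXR are known to induce, had 96.9, 128 and 92.5 CPM in WT and 163, 269 and 229 CPM in KO. Every KO library was above every WT library, KO 1 the least (log2 fold change 1.06, SE 0.19, adjusted p = 0.0279). Fasn, fatty acid synthase, was at 59.2 ± 11.0 and 107 ± 25.7 CPM (SD, n = 3; 0.85, SE 0.19, adjusted p = 0.0530), and Acaca, acetyl-CoA carboxylase, at 25.1 ± 0.794 and 38.1 ± 7.68 CPM (0.60, SE 0.14, adjusted p = 0.0609). The call of Scd1 stayed without WT replicate 2 or KO replicate 1 and ended without any of the other libraries (log2 fold changes 0.89 to 1.23 over all 6). Fasn and Acaca were called without KO replicate 1, at 1.02 and 0.75, and without the filter on low counts (adjusted p = 0.0147 and 0.0248).

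Adipocyte markers were higher in some of the same libraries. Of the 12, 10 were above every WT library in both KO 2 and KO 3, the exceptions being Cidea and Aqp7, at log2 fold changes of 0.05 and -0.16. KO 1 lay within the WT range for 8, above it for 3 and below it for 1, and it was the lowest KO library for 11. Adipoq, the adiponectin gene, had 28.1, 21.0 and 8.18 CPM in WT and 25.0, 82.0 and 46.8 CPM in KO, and Aqp7, a glycerol channel gene, had 21.3, 21.5 and 16.6 CPM and 17.5, 18.2 and 17.4 CPM. KO 1 was also the lowest KO library for Scd1, Fasn, Acaca, Abcg4, Srebf1, Acat2 and Lss, while it was the highest for Abca1 and Scarb2. The part of adipocytes in these values was not tested. With an adipocyte score as covariate the log2 fold changes were 0.62 for Scd1, 0.71 for Fasn, 0.72 for Abcg4, 0.52 for Scarb2, 0.33 for Srebf1 and 0.46 for Abca1, and 0 of all genes passed (2627 at an unadjusted p under 0.05). With a smooth muscle score they were 0.70, 0.49, 0.57, 0.51, 0.19 and 0.62 in that order. With a cardiomyocyte score they were 1.03, 0.99, 0.96, 0.53, 0.46 and 0.19, and none of these genes passed with any of the 3 scores. Neither smooth muscle nor cardiomyocyte scores overlapped between the groups, so both of those fits extrapolate. The plot of LXR and SREBP1 genes beside these markers gives the values by library. Its sterol and lipid genes were picked and all have positive log2 fold changes, so it does not show the lists as a whole. Scarb2 and Gramd1c in it come from the lists of lipoprotein uptake and sterol transport.

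**Figure D4:**
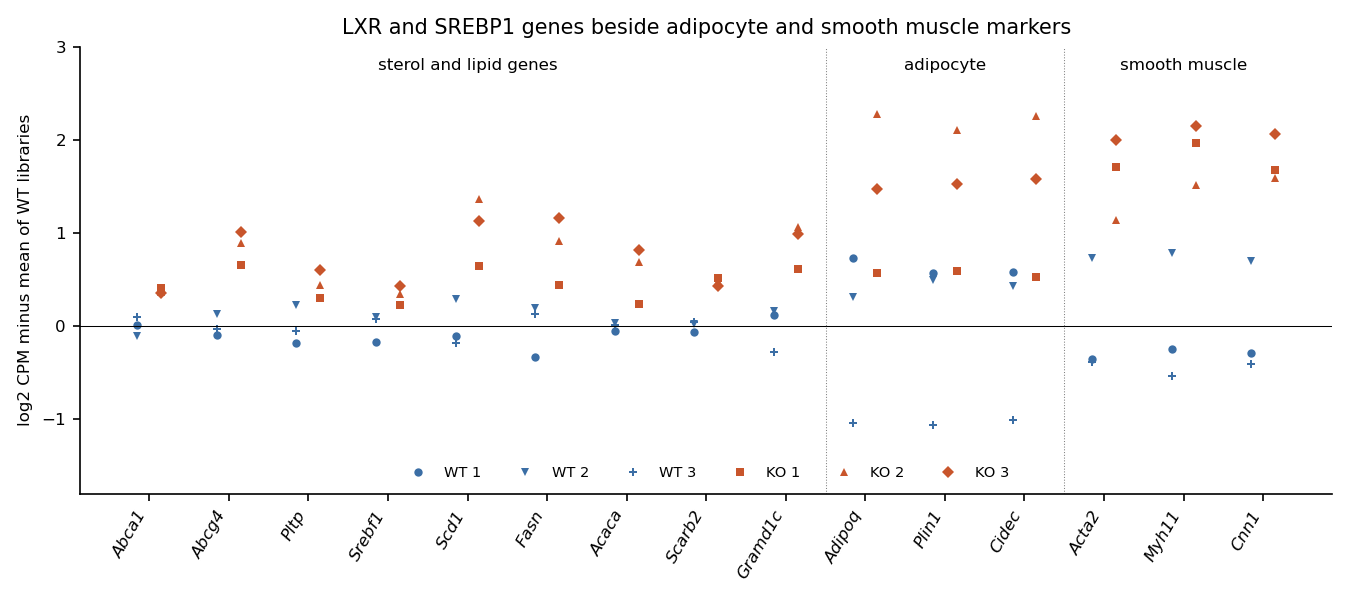
Log2 CPM of each gene in each library minus the mean of its WT libraries, for sterol and lipid genes, 3 adipocyte markers and 3 smooth muscle markers (blue, WT 1 to 3; orange, KO 1 to 3). The sterol and lipid genes shown were picked, and all have positive log2 fold changes. The KO points of Abca1 and Scarb2 lie close together. KO 1 is the lowest KO point for Scd1, Fasn and Acaca and for the 3 adipocyte markers. It lies above every WT point for Scd1, Fasn and Acaca. For Plin1 it lies just above them (34.4 CPM, against 33.8 CPM in WT 1), and for Adipoq and Cidec within the WT range.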

How the data were processed

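Whole-number read counts per gene symbol were deposited by the authors for 6 aortic root libraries, together with a normalized signal table in which the same deposited counts are divided by 1 factor per library. DRAGEN, HTSeq, DESeq2 and the mm10 build are named in the submitters' processing notes. The sources used here give no version, annotation release or strand setting. Without the strand setting, reads of overlapping genes cannot be told apart, and exons of 6 members overlap another gene of the table.

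Genes passing edgeR's filterByExpr (minimum count 10, minimum total 15) were tested after TMM scaling in edgeR 4.0.16 (quasi-likelihood F test, R 4.3.3), KO against WT over 6 libraries, adjusted over 15096 genes at 0.05. SE is the absolute log2 fold change divided by the square root of F, and intervals use the test's degrees of freedom. The step was tested on simulated data. Cell type scores are mean log2 CPM of a marker list (prior count 2). Exon lengths come from GENCODE M21 (GRCm38), promoter windows from RefSeq. Of 185 list genes 183 matched by symbol and 2 by RefSeq synonym.

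Alternatives were other scaling factors, no filter, DESeq2 1.42.0, limma-voom (limma 3.58.1), limma on log2 of the deposited normalized table (pseudocount 1), robust dispersion, 3 cell type scores as covariates, and each library left out. Members, lists and named genes (every member; of other lists those that passed and the 3 of smallest p) were chosen with earlier results of these data known, and the 4 ratios after the values were seen. Replicates were numbered in accession order. No pair of libraries agreed within sampling noise (chi-square per degree of freedom at least 34.1). Further marker lists had, of the tested genes, 0 of 6 brown adipocyte, 1 of 10 fibroblast and 1 of 9 Schwann cell markers called, the latter both higher.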

Additional observations from a re-analysis of the deposited data

How the results depend on the processing

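No member was called in edgeR without the filter on low counts, with DESeq2 size factors, with robust dispersion, with limma-voom, with limma on the deposited normalized values, with any covariate or with any library left out. DESeq2 and upper-quartile factors called 1, Abca1. In the alternatives without a covariate, 16 of 390 member values changed sign, in Abcg1, Cyp51, Ebp, Idi1, Lbr, Mvd, Nr1h3, Scap and Srebf2, none of them called. With the smooth muscle, cardiomyocyte and adipocyte covariates 14, 8 and 6 of 30 did, and Sqle moved to -0.25, 1.71 and 0.75. Smooth muscle and cardiomyocyte scores did not overlap between the groups, so those fits extrapolate. Over all genes, 385 were called (329 higher, 56 lower), against 1205 by DESeq2 (771 higher, 434 lower), 0 with the smooth muscle (443 at an unadjusted p under 0.05), 37 with the cardiomyocyte and 0 with the adipocyte covariate (2627), and 0 to 349 with 1 library left out (0 without WT replicate 1, with 2262 at an unadjusted p under 0.05, 118 without WT replicate 3, 218 without KO replicate 2 and 10 without KO replicate 3). Of the other pathway genes 3 were called, against 7 without the filter, 10 by DESeq2, 0 with each of the 3 covariates, and 0 to 6 with 1 library left out. The cause of these differences was not tested. With 3 libraries a group and a median SE of 0.12, small differences in single members may have been missed. Differences below 1.5-fold were not all out of reach, since Scarb2 was called at less than 1.5-fold, though not with any 1 library left out. No paired analysis was possible because the labels give no replicate numbers shared between the groups.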
